A study of Rattus norvegicus with 6 samples.

Results

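The cytosolic ribosomal protein genes encode the protein part of the ribosomes that translate nuclear messages. They were taken here as every array gene whose RefSeq symbol starts with Rpl or Rps followed by a digit, a or p, without the Rps6k kinases and pseudogenes. The rule found 83 genes of the 15284 named on the array, read by 243 of its 61657 probes, and each gene took the value of its brightest probe. Liver RNA came from 6 male Sprague-Dawley rats (Crl:CD(SD), an outbred laboratory stock), 5 weeks old at purchase and kept on a basal diet, with 1 one-colour array per animal. Of these, 3 received vehicle, given as purified water in the sample labels and as corn oil in the treatment protocol, and 3 were dosed at 1000 mg/kg/day with tBA, which is tert-butyl alcohol, a small alcohol found in solvents. The series text gives 28 days and the treatment protocol 9 weeks, so the length of dosing is not settled. The comparison of tBA with vehicle asks which liver transcripts differ after repeated dosing.

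A eukaryotic ribosome has a small subunit, which reads the message, and a large subunit, which joins the amino acids and lets the growing chain out through a tunnel. Its proteins are needed in near equal numbers, and in mammals most of their messages begin at a C that opens a run of pyrimidines, the terminal oligopyrimidine (TOP) element, through which mTOR signalling controls their translation. Liver, which makes most plasma proteins, is rich in ribosomes.

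Start sites are shown because pyrimidine runs near them can be read from the sequence, apart from the naming rule. RefSeq's promoter table (GRCr8) held 67 of the 83 genes. Each line below runs from 40 bases before to 20 bases after the annotated start, 5′ to 3′ on the strand of the gene, and the capitals mark the longest unbroken run of C and T within 20 bases to either side of that start. Shown are members at both ends of the range of differences, the stalk protein gene Rplp0, and the pairs Rpl3 with Rpl3l and Rps4x with Rps4y2.
Rpl19, chr10:83519024-83519083, + strand: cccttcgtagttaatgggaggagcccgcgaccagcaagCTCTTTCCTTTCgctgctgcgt
Rpl21, chr12:13386134-13386193, - strand: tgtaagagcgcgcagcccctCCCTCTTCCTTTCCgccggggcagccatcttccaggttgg
Rpl24, chr11:58128386-58128445, - strand: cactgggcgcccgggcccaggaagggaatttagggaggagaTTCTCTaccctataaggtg
Rpl9, chr14:43247550-43247609, + strand: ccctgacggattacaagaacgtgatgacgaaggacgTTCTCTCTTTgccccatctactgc
Rplp0, chr12:46718371-46718430, - strand: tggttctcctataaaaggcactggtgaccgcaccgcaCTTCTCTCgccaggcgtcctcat
Rpl3, chr7:113507971-113508030, - strand: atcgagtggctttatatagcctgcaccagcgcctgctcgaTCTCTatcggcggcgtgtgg
Rpl3l, chr10:14258406-14258465, + strand: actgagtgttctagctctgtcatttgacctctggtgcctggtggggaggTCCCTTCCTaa
Rps4x, chrX:71342902-71342961, - strand: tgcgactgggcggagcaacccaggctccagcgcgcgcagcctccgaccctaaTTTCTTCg
Rps4y2, chr4:183000873-183000932, + strand: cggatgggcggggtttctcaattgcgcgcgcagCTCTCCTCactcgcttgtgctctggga

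A run of at least 8 pyrimidines lay in that 40-base window in 43 of 59 core subunit genes (72.9%), against 15.5% of the 27457 promoters in the table. The letters CTTTC stood on the coding strand of the window in 29 of the 59 (49.2%), against 5.04% of all promoters. Over the whole 300 bases and both strands CTTTC was found in 81.4% of the core genes and 57.2% of all promoters. CTTCCG, which can share its first base with a CTTTC, was found in 55.9% and 17.4%. Among the like genes and paralogues in the table, 3 of 8 had a run of at least 8. These matches describe letters in a window and are not sites of binding. A run in the window need not open at the start, so it does not show a TOP element. In Rpl21 the marked part of the run spans bases -20 to -7 relative to the start. There -20 is the edge of the window, and the run begins before it.

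With tBA, the members were higher almost throughout, by small and similar amounts. Of 80 tested members 77 were higher and 3 lower, where 50.4% of all 11093 genes tested were higher. Their median difference, tBA minus vehicle, was 0.18 on the log2 scale, a 1.13-fold level, and the median of all genes was 0.0024. The quartiles of the members were 0.13 and 0.21, and 67 of the 80 were above 0.1. No member passed an adjusted p of 0.05 in limma over all 37647 probes tested, at which 0.112% of probes and 0.0451% of genes passed, and adjusted p of the members ran from 0.188 to 0.946. At an unadjusted p under 0.05 the same limma fit gave 19 members higher and 1 lower, where 7.59% of all genes were higher and 7.46% lower at that level. The standard errors of the members had a median of 0.090, and the 95% interval of 60 of the 80 differences included 0. In 56 members all 3 tBA arrays lay above all 3 vehicle arrays, and in 1 all lay below, against 12.8% and 11.4% of all genes. In bulk tissue, fewer cells of a type and less RNA per cell cannot be told apart.

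**Figure D1:**
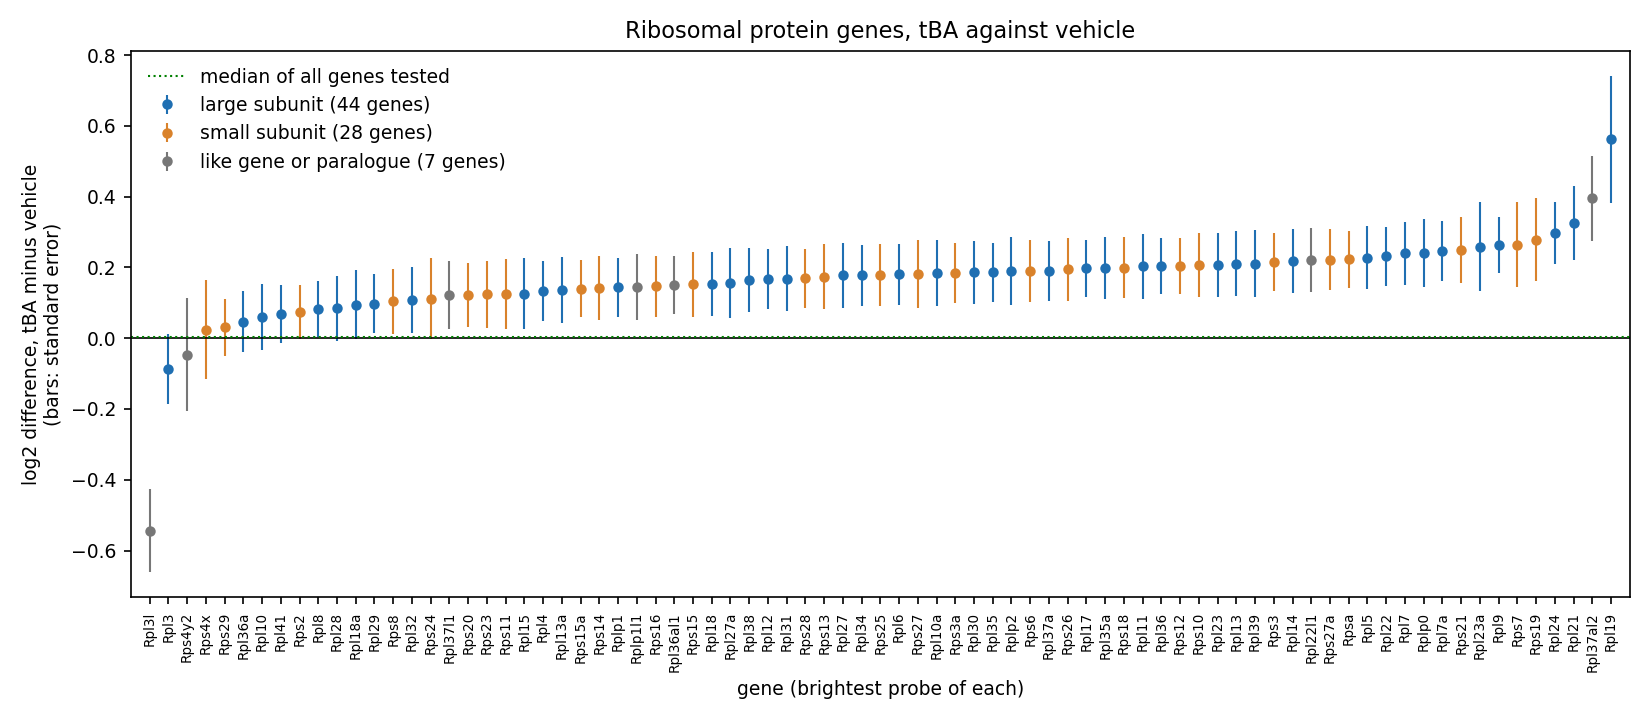
The log2 difference of tBA minus vehicle (vertical axis) is plotted for 79 of the 80 tested ribosomal protein genes, ordered by size, with bars of 1 standard error and colours for the subunit; the dotted line is the median of all genes. All but Rpl3l, Rpl3 and Rps4y2 sit above 0, where 64 of 80 do under quantile normalization.

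The order of the vehicle arrays was much the same from gene to gene, and that of the tBA arrays less so. Relative to each gene's vehicle mean, the median member stood at -0.074, 0.013 and 0.065 on vehicle replicates 1 to 3 and at 0.14, 0.19 and 0.20 on tBA replicates 1 to 3. Vehicle replicate 1 was the lowest vehicle array in 72 of 80 members, and vehicle replicate 3 the highest in 58. Of the tBA arrays, replicate 1 was the lowest in 53, and replicates 1, 2 and 3 were the highest in 14, 37 and 29. The vehicle arrays thus differed among themselves in the same direction across genes, and the tBA medians lay above all 3. The vehicle arrays and tBA replicate 1 shared a slide and the other tBA arrays shared a second one. Within slide 1, which sets 1 tBA array against 3, the median difference was 0.14 and 75 of 80 members were higher. On tBA replicates 1, 2 and 3 alone, 61, 69 and 72 of the 80 members exceeded every vehicle array, where 32.04%, 32.8% and 30.6% of all genes did, and 48.5%, 46.6% and 49.9% of the 917 other genes with a mean log2 signal of 14 or more.

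**Figure D2:**
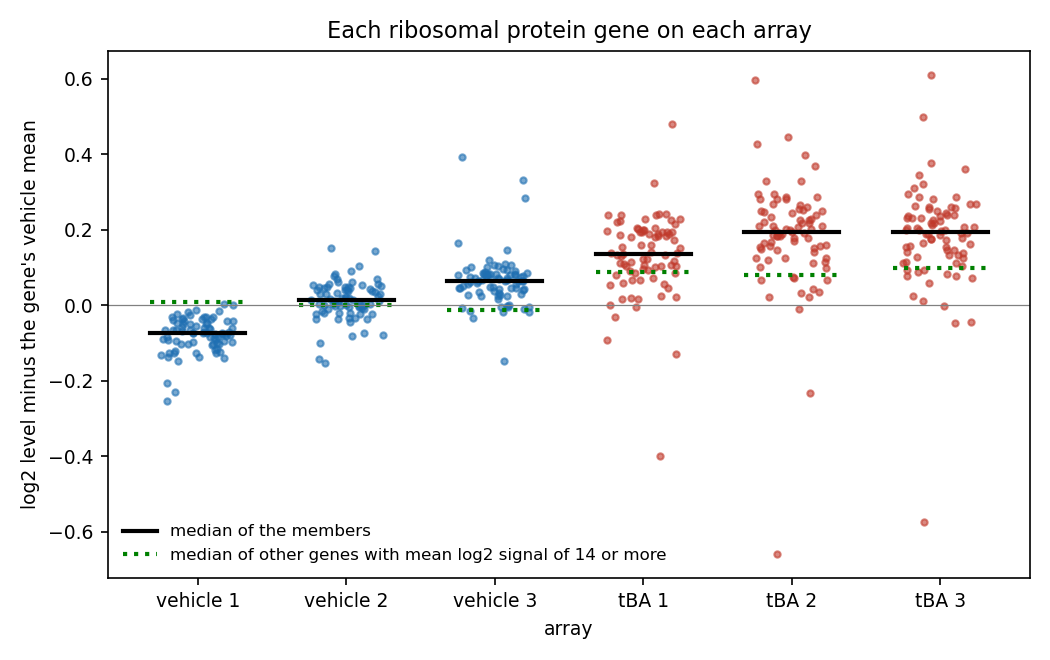
Each point is 1 of the 80 ribosomal protein genes on 1 array, as its log2 level minus that gene's vehicle mean; black bars are the medians of the members and green dotted bars those of 917 other bright genes. The member medians run from -0.074 on vehicle replicate 1 to 0.20 on tBA replicate 3, while the other bright genes lie near 0 on the vehicle arrays and between 0.081 and 0.099 on the tBA arrays.

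Other bright genes were also higher. Ribosomal protein probes are among the brightest on the array, and 74 of the 80 had a mean log2 processed signal of 14 or more. Of the 917 other genes as bright as that, 69.1% were higher, with a median of 0.087, and all tBA arrays lay above all vehicle arrays in 26% and below them in 6.32%; the limit of 14 was set after the data were seen. At an unadjusted p under 0.05, 14.1% of them were higher and 2.94% lower. The median of the other genes went from -0.072 at a signal of 6 to 8 up to 0.12 at 16 to 17 and was 0.085 at 17 to 20, where the 20 members had a median of 0.18. In the 16 to 17 band the 32 members, all higher, had a median of 0.19 and 75% of the 132 other genes were higher. Quantile normalization, which forces the arrays to 1 distribution, brought the bright other genes to 48.3% higher. Under it 64 of 80 members were higher, where 47.5% of all genes were, and the member median was 0.056. Groups were apart upward in 16 members and downward in 2, against 10.2% and 12.7% of all genes, and 11% and 14.8% of the other bright ones. The same limma fit gave 2 members higher and 1 lower at an unadjusted p under 0.05, against 6.45% and 7.91% of all genes and 6.22% and 7.74% of the other bright ones. The size of the difference was thus smaller under this scaling, and at that p the higher members were no more frequent than other genes.

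**Figure D3:**
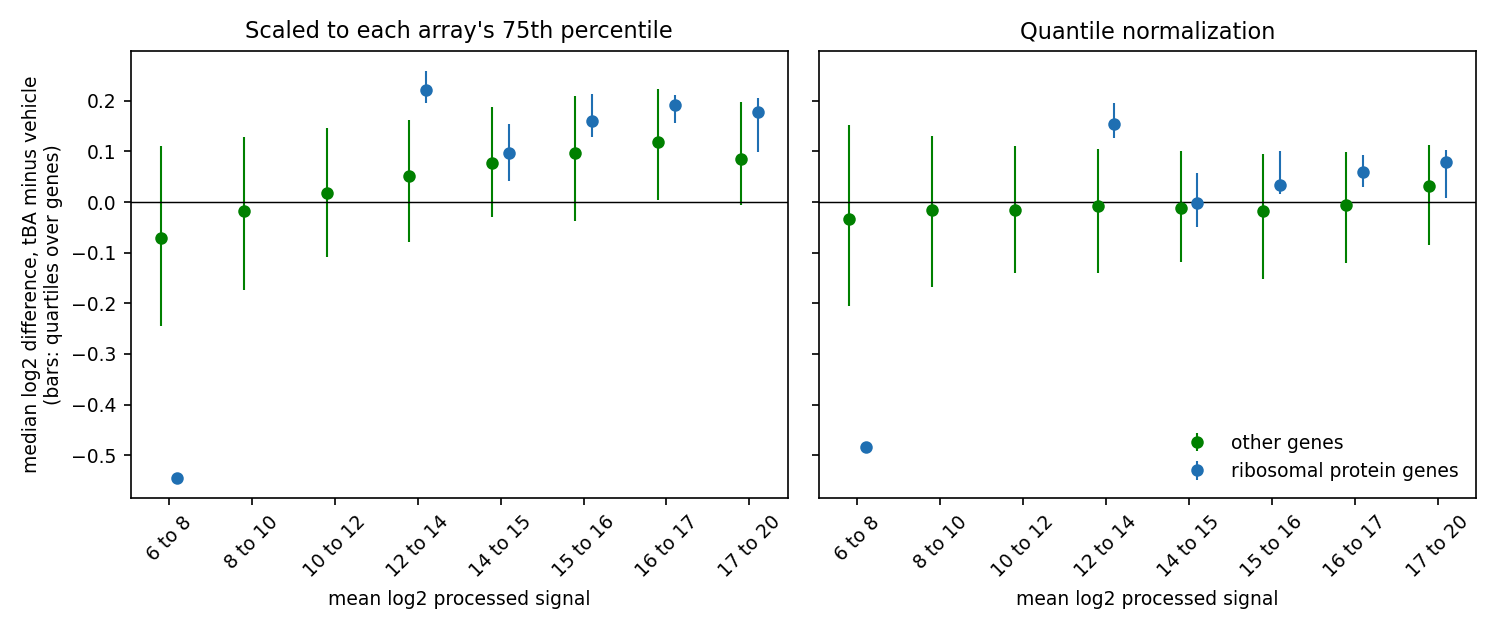
Median log2 difference (points) and quartiles over genes (bars) by mean log2 processed signal, for ribosomal protein genes and all other genes, under scaling to the 75th percentile (left) and quantile normalization (right). On the left the other genes climb from -0.072 to 0.12 in the 16 to 17 band and stand at 0.085 in the brightest one, and the members of those bands stand at 0.19 and 0.18; on the right the other genes lie between -0.033 and 0.031 and those members stand at 0.059 and 0.079.

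The subunits had like medians. The 44 tested large subunit genes had a median of 0.18 with 43 higher, and the 29 small subunit genes a median of 0.18 with all 29 higher. Groups were apart upward in 33 and 20 of them, against 12.8% of all genes and 26% of the other bright ones. The 46 tested members with a pyrimidine run of 8 or more had a median of 0.18, as did the 18 with a shorter run, such as Rpl24 and Rpl3 above.

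Rplp0, Rplp1 and Rplp2 form the stalk that recruits translation factors to the large subunit, and Rpl12 lies at its base. Rplp0 was at 8.55, 8.76 and 8.76 on the vehicle arrays and at 8.87, 8.96 and 8.96 on the tBA arrays, in log2 units above each array's 75th percentile. The groups did not overlap, and the difference was 0.24 (SE 0.10, limma adjusted p = 0.310). Rplp1, Rplp2 and Rpl12 were at 0.14, 0.19 and 0.17, also with groups apart.

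Rpl5 and Rpl11 enter the large subunit with an RNA of their own, and free copies of them restrain Mdm2, the inhibitor of p53. Rpl5 was at 5.77, 5.84 and 5.93 with vehicle and at 6.05, 6.14 and 6.03 with tBA. Every tBA value exceeded every vehicle value, by a mean of 0.23 (SE 0.09, limma adjusted p = 0.301), and Rpl11 was at 0.20 in the same way.

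Of the proteins that line or surround the exit tunnel, 8 were tested and 8 were higher, with a median of 0.20. Groups were apart upward in 7, against 12.8% of all genes. Rpl22, at the surface near the exit, was at 6.67, 6.73 and 6.79 with vehicle and at 6.91, 6.98 and 6.99 with tBA, a difference of 0.23 (SE 0.08). Rpl17 and Rpl35 were at 0.20 and 0.19, Rpl31, Rpl39 and Rpl4 at 0.17, 0.21 and 0.13, and Rpl23a at 0.26 with overlapping groups. Rpl19 had the largest difference of all members, 0.56 (SE 0.18, limma adjusted p = 0.262), but only by its brightest probe. That probe read 7.09, 7.20 and 7.73 on the vehicle arrays and 7.82, 7.94 and 7.95 on the tBA arrays, so vehicle replicate 3 stood nearer to the tBA arrays than to the other vehicle arrays. The 3 other probes of Rpl19 were at 0.085, 0.077 and 0.035.

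Rpl21 was the next of the core genes. Its brightest probe was at 7.82, 7.97 and 8.04 with vehicle and at 8.15, 8.34 and 8.32 with tBA, a difference of 0.33 (SE 0.10, limma adjusted p = 0.263). All 8 of its probes were higher, between 0.18 and 0.33. Rpl24, which bridges the subunits, was at 7.85, 7.90 and 8.02 against 8.17, 8.25 and 8.24, a difference of 0.30 (SE 0.09), and Rpl9 at 6.57, 6.65 and 6.60 against 6.85, 6.87 and 6.90, a difference of 0.26 (SE 0.08). Neither gene had overlapping groups, but the other probe of Rpl24 was at 0.18 and that of Rpl9 at 0.064. Rpl7a and Rpl7, further large subunit proteins, were at 0.25 and 0.24, and Rpl36 at 0.20. Their other probes were lower, at 0.12 and 0.18 for Rpl7a, 0.11 and 0.12 for Rpl7, and 0.098 and 0.11 for Rpl36.

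Among small subunit genes that shape the message path and the decoding centre, 8 of 8 tested were higher with a median of 0.16. Rps3, at the entry of the message channel, was at 7.07, 7.13 and 7.19 with vehicle and at 7.32, 7.38 and 7.34 with tBA, a difference of 0.22 (SE 0.08, limma adjusted p = 0.295). Its other probes were at 0.11 and 0.082. Rps18, Rps26 and Rps28 were at 0.20, 0.19 and 0.17, and Rps14 and Rps15 at 0.14 and 0.15, and Rps2 and Rps23 at 0.074 and 0.12. Rpsa, the small subunit protein also described as a laminin receptor, was at 0.22 and Rps21 at 0.25, each with groups apart. The 0.22 of Rpsa was that of its brightest probe alone, and its 3 other probes were at 0.0049, 0.12 and -0.0064. Rps12 was at 0.20 with groups apart, and Rps7 at 0.26 with overlapping groups.

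Rps6, the protein phosphorylated downstream of mTOR, was at 8.07, 8.13 and 8.20 with vehicle and at 8.25, 8.38 and 8.34 with tBA. The groups were apart and the difference was 0.19 (SE 0.09, limma adjusted p = 0.345). Rps27a, made as a fusion with ubiquitin, was at 0.22, and Rps10 and Rps20, which are ubiquitinated when ribosomes collide, at 0.21 and 0.12. Rpl13a and Rpl38, which have been linked to the translation of particular messages, were at 0.14 and 0.16. Outside the naming rule, the ribosomal genes Fau and Rack1 were at 0.18 and 0.12, each with groups apart.

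At the low end stood Rpl3 and its paralogue Rpl3l, which replaces Rpl3 in muscle. Rpl3 was at 6.39, 6.46 and 6.47 with vehicle and at 6.45, 6.20 and 6.39 with tBA. The groups overlapped, the difference was -0.087 (SE 0.10, 95% interval from -0.33 to 0.15), and its other probe was at -0.047. Rpl3l was at -2.61, -2.47 and -2.76 with vehicle and at -3.01, -3.27 and -3.19 with tBA, well above background on all 6 arrays. All tBA values lay below the vehicle values, by 0.54 on the log2 scale (difference -0.54, SE 0.12, limma adjusted p = 0.188), the lowest adjusted p of any member. Its other probe was never well above background and was not tested. Of the muscle markers tested beside it, Ckm was at -0.085 with overlapping groups. Acta1 was well above background on 3 tBA arrays and only 1 vehicle array. It was tested only through the tBA group, so no fold is given for it.

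The remaining members near 0 were Rps4x at 0.024, Rps29 at 0.030, Rpl36a at 0.047, Rpl10 at 0.060, Rpl41 at 0.068, Rps2 at 0.074 and Rpl8 at 0.083. Rpl8 was not followed singly through the alternatives. Of the others, Rps4x, Rps29, Rpl36a, Rpl10 and Rps2 were below 0 under quantile normalization, and with the array median as the scale Rps4y2 was above 0. Rps29, for example, was at 7.96, 8.01 and 7.96 with vehicle and at 8.002, 7.97 and 8.06 with tBA, and its 95% interval from -0.16 to 0.22 also holds the median of the members. Rps4x and its paralogue Rps4y2 were both highest on vehicle replicate 3. Rps4x was at 5.06, 5.19 and 5.55 against 5.32, 5.29 and 5.27, and Rps4y2 at 3.87, 4.002 and 4.43 against 3.97, 4.13 and 4.06, a difference of -0.047 (SE 0.16). Ribosomal protein genes have many near-identical copies, so the values of paralogues and like genes are uncertain.

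Of the like genes and paralogues, 7 were tested. Rpl22l1, the paralogue of Rpl22, was at 4.395, 4.44 and 4.54 with vehicle and at 4.68, 4.75 and 4.60 with tBA, a difference of 0.22 with groups apart. Its other probes were at 0.18, 0.039 and -0.027. Rpl37al2, known by its resemblance to Rpl37a, was at 0.39 (SE 0.12), read by 1 probe. Rpl36al1, Rplp1l1 and Rpl37l1 were at 0.15, 0.15 and 0.12, and the probes of Rpl37l1 ran from -0.0087 to 0.31. Rpl27l2, Rpl39l1 and Rps12l4 were not well above background on all arrays of either group and were not tested.

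Other probes gave a second reading of the same arrays. Of 237 tested member probes 225 were higher and 12 lower, and the 157 that were not the brightest had a median of 0.15. Among 72 genes with more than 1 tested probe, all probes were higher in 63, all were lower in 2 and signs differed in 7. The probes of a gene spanned a median of 0.089. Genes with a wide span were Rps4y2, whose second probe was at -1.62 (SE 0.66), Rpl36a, with a probe at 0.67, and Rps19. The second Rps4y2 probe was at 1.78, 1.51 and 2.54 with vehicle and at -0.43, 1.83 and -0.42 with tBA, so tBA replicate 2 stood with the vehicle arrays. For Rps19 the brightest probe was at 0.28 and 1 other at -0.36, where tBA replicate 3 read 4.74 against 6.08 and 6.13 on the other tBA arrays.

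**Figure D4:**
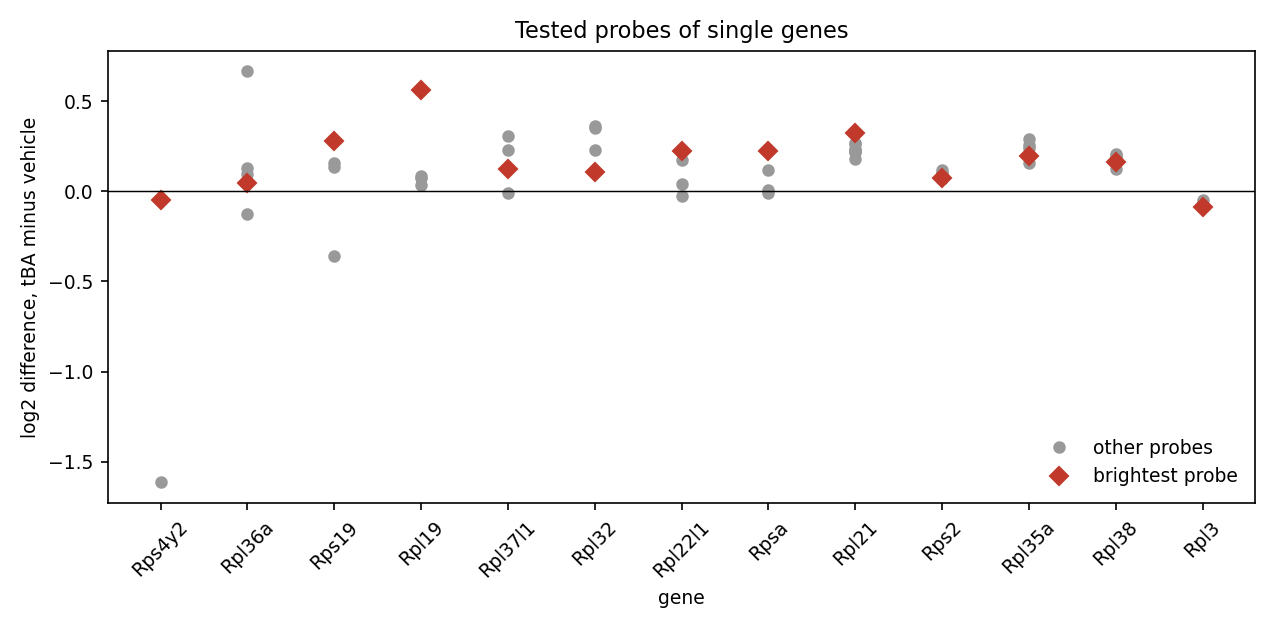
Log2 differences of every tested probe are plotted for the 8 genes whose probes span the widest range, for Rpl21, Rps2, Rpl35a and Rpl38 with 5 or more probes, and for Rpl3; red diamonds are the brightest probes and grey points the others. The 8 probes of Rpl21 lie between 0.18 and 0.33, while the brightest probe of Rpl19 lies apart from its other 3.

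Factors that build ribosomes were higher alongside the members. Of 41 tested assembly genes 39 were higher, with a median of 0.21, and 15 had an unadjusted p under 0.05, all higher, where 50.4% of all genes were higher and 7.59% were so at that p; 0 passed the adjusted threshold. Gar1, of the particles that modify ribosomal RNA, was at 0.57 (SE 0.12, limma adjusted p = 0.181), the nucleolar protein Npm1 at 0.37, Nop16 at 0.35 and Wdr3 at 0.34. Their medians on tBA replicates 1 to 3 were 0.28, 0.19 and 0.12, so replicate 1 was the highest here and the lowest among the ribosomal protein genes. Of 14 genes for transcription of ribosomal RNA 11 were higher, with a median of 0.10; the polymerase subunit genes Polr1e and Polr1d were at 0.57 and 0.38. The promoter factor Taf1a was well above background on 3 tBA arrays and on 0 vehicle arrays, and no fold is given for it. It was tested only through the tBA group, where it is high, and is still counted among the 11 and in the median of the 14.

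Lists of translation factors had lower medians than the members, but were not matched to them by signal. Differences rose with signal under this scaling, and genes other than the members had medians of 0.018 at 10 to 12 and 0.052 at 12 to 14. Of 32 initiation factors 23 were higher, with a median of 0.11. Eif3m, Eif3h and Eif4b were at 0.34, 0.34 and 0.32, while Eif6, which holds free large subunits apart, was at -0.30 (SE 0.10, limma adjusted p = 0.275). All 10 elongation and termination factors tested were higher, with a median of 0.13, Eef1d at 0.26 among them. Genes that act on TOP messages had 6 of 14 higher and a median of -0.021, with the translation repressors Eif4ebp2 and Eif4ebp1 at 0.42 and 0.38. Of 66 mitochondrial ribosomal protein genes, which serve the separate ribosome of mitochondria, 51 were higher with a median of 0.059, Mrpl47 at 0.38 and Mrpl34 at 0.30 being those of smallest p. None of the genes in these lists passed the adjusted threshold.

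**Figure D5:**
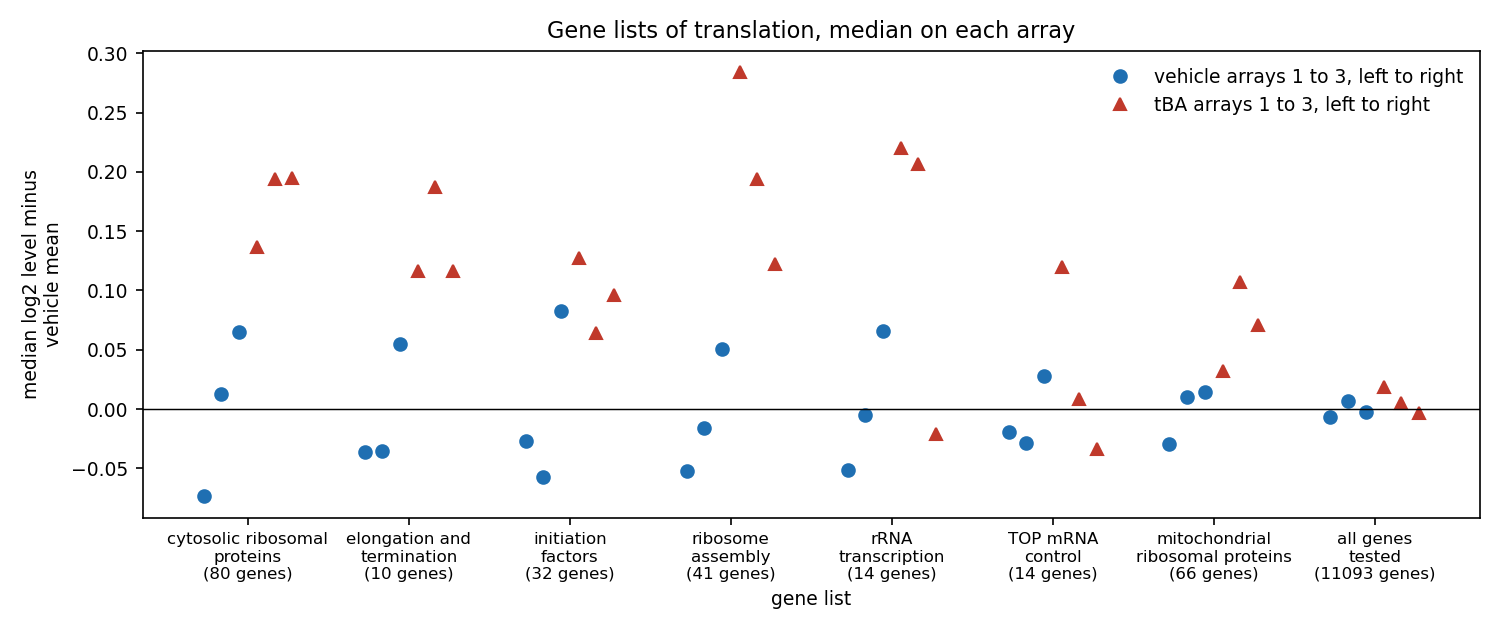
The median log2 level minus the vehicle mean is plotted for gene lists of translation, with 3 vehicle arrays (circles) and 3 tBA arrays (triangles) per list. Every tBA median lies above every vehicle median in the cytosolic and mitochondrial ribosomal proteins, the assembly genes and the elongation and termination factors; in all genes tested the 6 medians lie between -0.0066 and 0.019.

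As facts of the whole series, each array had 61.5% to 66.9% of its probes well above background, no spot was saturated, and 42 probes passed the adjusted threshold. The hepatocyte markers fixed for the labelled tissue were detected, with 10 of 10 tested and a median difference of 0.033. Their summed level, as processed signal over the 75th percentile, was 4385 to 4713 with vehicle and 4488 to 4590 with tBA. Of immune cell markers tested, 1 of 6 for T and NK cells, 0 of 4 for B cells, 1 of 7 for macrophages and 2 of 2 for neutrophils were higher. Their summed levels were 2.41 to 3.81 with vehicle and 1.97 to 2.80 with tBA for T and NK cells, 15.2 to 25.4 and 13.9 to 18.3 for B cells, 92.0 to 113 and 93.0 to 98.0 for macrophages, and 0.89 to 1.80 and 1.57 to 2.08 for neutrophils. Endothelial markers were higher in 3 of 4, with sums of 43.1 to 48.7 and 50.8 to 53.2 that did not overlap, and stellate cell markers in 0 of 6, with sums of 24.5 to 30.3 and 19.8 to 26.2. No list here had all its markers at background. The part of these cell types in the result was not tested. The precision of every value is limited by the number of arrays, and the smallest exact two-sided permutation p of 3 against 3 is 0.1.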

How the data were processed

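Each deposited file holds the spot intensity of 1 array; per the file headers the scans went through Agilent's Feature Extraction, version 10.7.1.1, and rn4 is the annotation build. The deposited series table holds a linear ratio, the processed signal divided by 1 constant per array (570.0 to 639.5), as found from the values. Processed signals were taken as log2, less the 75th percentile of their array, without control spots and with 3 to 16 outlier spots per array missing. Probes well above background on all arrays of a group entered a 2-group model (limma 3.58.1, R 4.3.3; lmFit, then eBayes), with Benjamini-Hochberg adjustment over all of them, and the fit was tested on simulated data. SE is limma's moderated standard error. Probes were named through accessions (27460 of 61657); files and sequences differ in build, so only RefSeq's coordinates are printed. Genes ending in l and a number, and paralogues listed beforehand, were set apart from the core subunits after their names were seen.

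Named are the 8 members at each end, those with an unadjusted p under 0.05 and fixed role lists, with up to 4 genes of each pathway list; some are left to the counts, and some are not reported here. Members and lists were chosen with earlier results of these data known. Alternatives were normexp (on the median signal), other scalings, the authors' ratios, other filters, the slide or replicate as a block, each array left out, and other probes of a gene. Python 3.11.15, numpy 2.4.6, pandas 2.3.3, scipy 1.17.1 and matplotlib 3.10.9 were used.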

Additional observations from a re-analysis of the deposited data

How the results depend on the processing

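The member count past the adjusted threshold stayed 0 in limma under all 22 alternatives. The median difference of the members was 0.056 with quantile normalization and 0.25 with the median of each array as the scale, which moved the median of all probes from 0.014 to 0.088; leaving out 1 array gave 0.14 to 0.20. Members with groups apart upward numbered 56 in the main fit and 16 with quantile normalization. They numbered 42 with normexp, 43 with the 75th percentile of detected probes and 67 with the array median. Without 1 array they numbered 56 to 67, but groups that are apart stay so when an array is dropped, so this count could not fall. Members higher numbered 76 to 78 without 1 array. Over all probes, 42 passed, against 18 with no filter, 0 above background on all 6 arrays, 68 with the intensity trend, 20 with slide as a fixed block and 0 within slide 1 (in the settings giving 0, limma put 5634 and 2956 probes at an unadjusted p under 0.05). Without 1 array it was 6 to 45, with 22 without vehicle replicate 1, 25 without vehicle replicate 3, 6 without tBA replicate 2 and 14 without tBA replicate 3. Deviations of same-numbered arrays correlated at -0.056, -0.064 and 0.014, which gave no sign of pairing by number but does not settle whether animals were matched. The replicate block is given only here: 6 probes passed and the member median kept its value of 0.18. The cause of these changes was not tested, except that fewer arrays or probes enter some fits.

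Of 51 named genes followed, 10 changed sign under some alternative, at these log2 differences. With quantile normalization Rps4x was at -0.059, Rps29 at -0.072, Rpl36a at -0.047, Rpl10 at -0.0035, Rps2 at -0.013 and Rps20 at -0.012. With normexp Rps29 was at -0.014 and Rpl10 at -0.060. With slide as a fixed block, and within slide 1, Rpl3 was at 0.018 and Rpl36a at -0.031. Rps4y2 was at 0.027 with the array median and at -0.16 to 0.12 without 1 array (0.12 without vehicle replicate 3). Rps4x was at -0.078 to 0.17 without 1 array, with -0.078 and -0.015 without vehicle replicates 1 and 2. Averaging its probes put Rpl41 at -0.0087, and its second probe alone gave -0.085; the second probe of Rpl4 gave -0.017. The counts of members higher and apart were followed through the alternatives after seeing the data.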
